A study of Mus musculus with 4 samples.

Results

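Cholesterol handling was followed through 8 genes in immune cells sorted from mouse mammary tumours: the synthesis enzymes Hmgcs1, Idi1, Fdft1 and Sqle, the regulators Insig1 and Srebf2, and the exporters Abca1 and Abcg1. They were taken by gene symbol, and all 8 were found among the 31053 features of the deposited tables. One group came from FVB/NJ mice of genotype Jagged1/PyMT, and the other from FVB/NJ mice of genotype PyMT. PyMT, the polyoma middle T antigen, drives mammary tumours, and Jagged1 is a ligand of Notch receptors; the labels do not name the promoters of these alleles. All mice were 12 weeks old and all carried PyMT. RNA of FACS-sorted immune cells was counted by droplet sequencing with unique molecular identifiers (UMIs), in 2 samples per genotype. Both samples of a genotype share 1 matrix, so each genotype is 1 library. No test between mice was possible, and every interval below is a 95% interval for counting error alone.

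Cells build cholesterol from acetyl-CoA through the mevalonate pathway. When sterols are scarce, the transcription factor SREBP-2, encoded by Srebf2, is released from the endoplasmic reticulum and raises genes for synthesis and uptake, while the Insig1 protein retains it there when sterols are plentiful. When sterols and their oxidised forms accumulate, the nuclear receptors LXR raise the exporters Abca1 and Abcg1, which pass cholesterol to lipoproteins. Macrophages depend on this export route because they take up lipid from dying cells.

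The Jagged1/PyMT library held 55506773 UMIs and the PyMT library 36012036. Barcodes were kept from 500 UMIs and 250 genes upwards where mitochondrial UMIs did not exceed 10%, which left 7875 Jagged1/PyMT and 7444 PyMT cells with medians of 4200 and 3841 UMIs. The libraries shared 70 of these barcode sequences, against 79.5 expected if barcodes were drawn at random. Cells were placed in 4 gates by marker UMIs: 2423 macrophages, 2482 T cells, 1275 B cells and 111 dendritic cells in Jagged1/PyMT, and 267 macrophages, 4889 T cells, 1400 B cells and 101 dendritic cells in PyMT. A further 1584 Jagged1/PyMT and 787 PyMT cells entered no gate. Every marker of a gate's own list was detected in both libraries, but the cells were chosen by these same markers. The macrophage gate still held T cell markers, at a summed 303 UMIs per 1000000 UMIs of the gate (CPM) in Jagged1/PyMT and 371 CPM in PyMT. Jag1, the gene named by the genotype, had 886 UMIs (16.8 CPM) over all kept Jagged1/PyMT cells and 67 UMIs (1.96 CPM) over PyMT cells. In the T cell gate it stood at 25.1 CPM against 0.286 CPM in PyMT, whereas in the macrophage gate it stood at 11.6 CPM against 12.2 CPM.

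Positions are from GENCODE vM21 on GRCm38, and all 8 genes are protein coding. On the plus strand were Insig1 (chr5:28071363-28078662), Hmgcs1 (chr13:119690379-119708260), Idi1 (chr13:8885501-8892451), Sqle (chr15:59315077-59331192), Srebf2 (chr15:82147181-82205379) and Abcg1 (chr17:31057675-31117988). On the minus strand were Abca1 (chr4:53030787-53159895) and Fdft1 (chr14:63145150-63179578). Promoter windows from RefSeq (GRCm38.p6), from 250 bases before the start site to 50 bases after it, were matched for 5 of the 8 genes. The windows of Hmgcs1, Insig1, Idi1 and Abca1 are shown because the levels and differences below turn on these genes. Capitals mark every match, on either strand, to the sterol response core bound by SREBP-2, TCACNCCA (N is any base), to CCAAT, to the E-box CACGTG, and to an LXR-type repeat, GGTNA and GGTCA separated by 5 bases; no matches overlapped.
Hmgcs1: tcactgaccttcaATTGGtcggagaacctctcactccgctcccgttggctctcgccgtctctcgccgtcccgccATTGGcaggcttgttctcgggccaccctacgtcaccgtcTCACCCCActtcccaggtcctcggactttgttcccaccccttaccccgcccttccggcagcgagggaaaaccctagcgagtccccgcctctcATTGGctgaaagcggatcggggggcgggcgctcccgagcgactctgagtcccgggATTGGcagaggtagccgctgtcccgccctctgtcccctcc
Insig1: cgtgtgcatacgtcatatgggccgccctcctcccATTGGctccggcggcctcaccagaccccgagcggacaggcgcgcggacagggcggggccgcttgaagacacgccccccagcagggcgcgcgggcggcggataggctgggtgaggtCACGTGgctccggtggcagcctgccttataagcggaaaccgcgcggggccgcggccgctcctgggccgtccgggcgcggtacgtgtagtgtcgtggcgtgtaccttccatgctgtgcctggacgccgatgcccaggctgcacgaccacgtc
Idi1: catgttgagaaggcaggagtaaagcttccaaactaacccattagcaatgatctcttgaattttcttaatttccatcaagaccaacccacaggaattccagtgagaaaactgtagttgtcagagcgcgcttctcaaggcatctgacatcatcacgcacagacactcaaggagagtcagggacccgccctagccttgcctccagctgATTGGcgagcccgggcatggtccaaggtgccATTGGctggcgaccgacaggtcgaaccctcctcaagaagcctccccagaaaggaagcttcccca
Abca1: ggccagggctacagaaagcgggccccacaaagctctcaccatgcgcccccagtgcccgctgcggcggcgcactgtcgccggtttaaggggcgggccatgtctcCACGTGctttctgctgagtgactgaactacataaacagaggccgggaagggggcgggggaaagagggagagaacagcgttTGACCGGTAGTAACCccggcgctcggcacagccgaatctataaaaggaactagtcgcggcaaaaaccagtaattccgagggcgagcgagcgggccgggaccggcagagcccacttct

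Hmgcs1 (chr13:119690101-119690400, plus strand) held the sterol response core at -137 to -130, counted from the start site, and 4 CCAAT matches. Srebf2 (chr15:82147019-82147318, plus strand) also held the core, at -162 to -155, beside 1 CCAAT match at -135 to -131. Of all 32851 promoter windows, 4.36% held the core, and 37.4% held CCAAT. Insig1 (chr5:28071162-28071461, plus strand) held the E-box at -101 to -96, a motif of 7.15% of windows, and CCAAT at -216 to -212. Idi1 (chr13:8885356-8885655, plus strand) held CCAAT at -45 to -41 and at -14 to -10. Abca1 (chr4:53159846-53160145, minus strand) held the LXR-type repeat at -67 to -53, a match found in 0.207% of windows, and an E-box at -147 to -142. These are matches of letters, and no binding was measured.

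Abca1 was high in macrophages and B cells and close to absent from T cells and dendritic cells. It had 2927 UMIs in Jagged1/PyMT macrophages, or 115 CPM (interval 111 to 119), and 264 UMIs in PyMT macrophages, or 129 CPM (114 to 145). B cells held 67.4 CPM (59.8 to 75.7) in Jagged1/PyMT and 81.8 CPM (74.1 to 90.1) in PyMT. T cells held 3.15 CPM (2.17 to 4.42) and 5.20 CPM (4.27 to 6.28) in the same libraries. Dendritic cells had 2 UMIs in Jagged1/PyMT and 1 UMI in PyMT. The order macrophage, B cell, T cell, dendritic was thus the same in both libraries, and only the intervals of the T cell and dendritic gates overlapped. Macrophages exceeded T cells 36.4-fold (25.9 to 53.0) in Jagged1/PyMT and 24.8-fold (19.7 to 31.2) in PyMT, and B cells exceeded T cells 21.4-fold (14.9 to 31.7) and 15.7-fold (12.7 to 19.6).

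The same order held when depth was equalised. At 1000 UMIs drawn per cell, 10.6% of 2324 Jagged1/PyMT macrophages and 10.8% of 232 PyMT macrophages held an Abca1 UMI, as did 7.35% and 7.59% of B cells. T cells, the gate taken as background for the share, held one in 0.411% of Jagged1/PyMT and 0.536% of PyMT cells. None of 108 Jagged1/PyMT and 99 PyMT dendritic cells did, which allows shares of up to 2.78% and 3.03% at 3 cells of the total, or 3.36% and 3.66% by the exact binomial limit. At full depth the macrophage shares were 45.9% at a median of 9734 UMIs and 34.1% at a median of 6485 UMIs, and the T cell shares were 1.33% at 3784 UMIs and 2.19% at 3898 UMIs. Barcodes with fewer than 100 UMIs, taken as free RNA, held Abca1 at 65.7 CPM in Jagged1/PyMT and 37.1 CPM in PyMT, above the T cell level in each library.

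Within the macrophage gate, Abca1 stood above the remaining macrophages in cells holding UMIs of the tissue-resident markers Folr2, Mrc1 and Cd163. These 176 Jagged1/PyMT and 23 PyMT cells held 167 CPM (151 to 184) and 197 CPM (150.2 to 253). Cycling macrophages held 78.9 CPM (71.3 to 87.1) in Jagged1/PyMT and 104 CPM (64.1 to 158) in PyMT. In Jagged1/PyMT the 40 macrophages with Arg1, an arginine-degrading enzyme of suppressive macrophages, held 168 CPM (138 to 203); PyMT had 2 such cells. The remaining macrophages held 116 CPM (111 to 121) and 121 CPM (104 to 140).

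**Figure D1:**
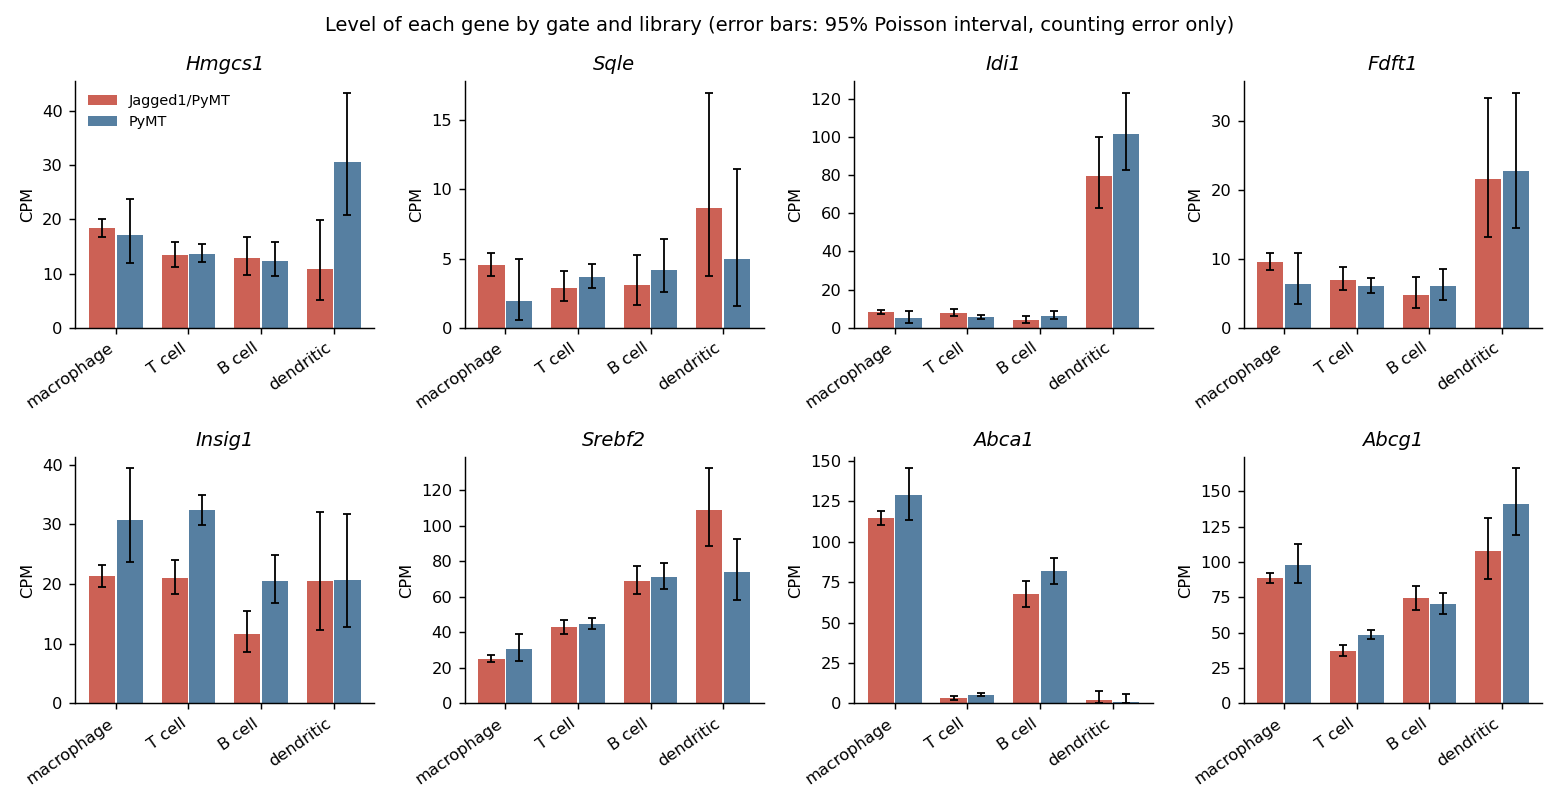
Level of each of the 8 genes in CPM (vertical axes, from 0) in the macrophage, T cell, B cell and dendritic gates, with Jagged1/PyMT left of PyMT and bars for the 95% Poisson interval. Abca1 stands high in macrophages and B cells and near 0 in dendritic cells, whereas Idi1 stands near 80 to 102 CPM in dendritic cells and under 9 CPM in the other gates.

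Abcg1, the other exporter, did not share this split. Dendritic cells, almost without Abca1, held the most Abcg1: 108 CPM (87.7 to 131) in Jagged1/PyMT and 141 CPM (119 to 166) in PyMT. Macrophages held 88.5 CPM (84.9 to 92.2) and 98.1 CPM (85.0 to 113), and B cells 74.3 CPM (66.3 to 83.0) and 70.3 CPM (63.1 to 78.0). T cells were lowest, at 37.2 CPM (33.6 to 41.1) in Jagged1/PyMT and 48.7 CPM (45.8 to 51.8) in PyMT. Dendritic and macrophage levels overlapped in Jagged1/PyMT and not in PyMT. Dendritic cells whose markers were mostly Fscn1, Ccl22, Ccl17 and Cacnb3, known from mature dendritic cells, held 140.1 CPM of Abcg1 (110.0 to 176) in Jagged1/PyMT and 177 CPM (147 to 212) in PyMT. Conventional dendritic cells, 16 in Jagged1/PyMT and 11 in PyMT, had 4 and 8 Abcg1 UMIs.

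Idi1, the enzyme that isomerises the isoprenoid building block, was highest in dendritic cells. Dendritic cells held 74 UMIs or 79.8 CPM (62.7 to 100.2) in Jagged1/PyMT and 103 UMIs or 102 CPM (83.0 to 123) in PyMT. Macrophages held 8.22 CPM (7.15 to 9.42) and 4.88 CPM (2.34 to 8.98), T cells 7.91 CPM (6.30 to 9.81) and 5.49 CPM (4.53 to 6.59), and B cells 3.81 CPM (2.18 to 6.19) and 6.37 CPM (4.36 to 8.99). No other gate overlapped the dendritic interval in either library. Dendritic cells exceeded macrophages 9.70-fold (7.34 to 12.7) in Jagged1/PyMT and 20.8-fold (10.9 to 44.7) in PyMT.

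Mature dendritic cells carried most of this signal. They held 66 of the 74 dendritic Idi1 UMIs in Jagged1/PyMT, or 125 CPM (96.6 to 159), and 96 of the 103 in PyMT, or 139 CPM (113 to 170.3). An Idi1 UMI was found in 26 of 66 Jagged1/PyMT and 29 of 67 PyMT mature cells, and the single cell with most held 11 and 14 UMIs. Plasmacytoid dendritic cells had 5 UMIs in each library. Outside the dendritic gate, cycling T cells stood above T cells with Cd4 or Cd8 alone and the remaining T cells, with 26.7 CPM (14.6 to 44.7) from 14 UMIs in Jagged1/PyMT and 20.7 CPM (11 to 35.3) from 13 UMIs in PyMT. T cells with Cd4 and no Cd8 held 8.25 CPM (5.11 to 12.6) and 5.56 CPM (3.804 to 7.85).

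**Figure D2:**
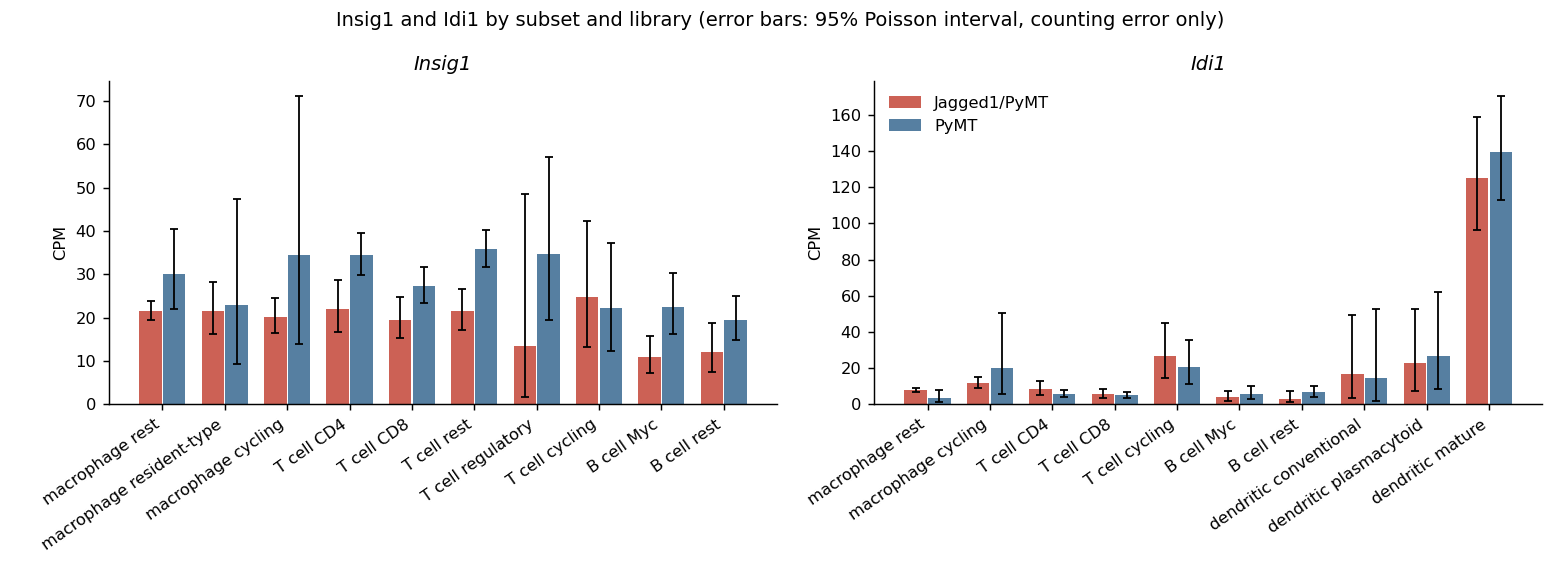
Insig1 (left panel) and Idi1 (right panel) in CPM by subset, with Jagged1/PyMT left of PyMT and bars for the 95% Poisson interval. Mature dendritic cells hold 125 and 139 CPM of Idi1, and Insig1 is lower in Jagged1/PyMT in T cells with Cd4, with Cd8 and with neither or both, and in B cells with Myc, without overlap of the intervals in Cd4, remaining and Myc cells.

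Fdft1, which joins farnesyl units into squalene, was also highest in dendritic cells. It held 21.6 CPM (13.2 to 33.3) in Jagged1/PyMT dendritic cells and 22.7 CPM (14.4 to 34.1) in PyMT dendritic cells, and between 4.76 and 9.52 CPM in the other gates of both libraries. Mature dendritic cells held 32.2 CPM and 29.1 CPM. Cycling T cells again stood above Cd4 T cells in PyMT, at 19.1 CPM (9.85 to 33.3) against 5.74 CPM (3.95 to 8.06); in Jagged1/PyMT the levels were 20.9 CPM (10.5 to 37.5) and 6.68 CPM (3.89 to 10.7), and their intervals overlapped narrowly. In cycling macrophages of Jagged1/PyMT Fdft1 stood at 14.9 CPM (11.8 to 18.7), against 8.50 CPM (7.18 to 9.98) in the remaining macrophages. Over 27 subsets of the libraries with at least 100000 UMIs, the log2 levels of Idi1 and Fdft1 had a Pearson r of 0.85, while those of Hmgcs1 and Idi1 had an r of 0.22. The points share libraries and depth, so these are descriptions.

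Hmgcs1, which makes a precursor of mevalonate, varied 1.70-fold across gates in Jagged1/PyMT and 2.48-fold in PyMT. It ranged from 10.8 CPM in dendritic cells to 18.4 CPM in macrophages of Jagged1/PyMT, and from 12.3 CPM in B cells to 30.6 CPM in dendritic cells of PyMT. Its interval in Jagged1/PyMT macrophages (16.7 to 20.1 CPM) lay just above that in T cells (11.2 to 15.8 CPM). Sqle, the epoxidase that commits squalene to sterols, had 202 UMIs (3.83 CPM) in all kept Jagged1/PyMT cells and 142 UMIs (4.15 CPM) in PyMT cells. All neighbouring gates overlapped for Sqle.

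Srebf2, which like Abca1 was higher in B cells than in T cells, was lowest in macrophages, where Abca1 was highest. It held 24.9 CPM (23.0 to 27.0) in Jagged1/PyMT macrophages and 30.8 CPM (23.6 to 39.3) in PyMT macrophages, against 43.0 and 45.0 CPM in T cells and 69.1 and 71.4 CPM in B cells. Dendritic cells were highest, with 101 UMIs or 109 CPM (88.7 to 132) in Jagged1/PyMT and 75 UMIs or 74.0 CPM (58.2 to 92.8) in PyMT. The 4 gates were separate in Jagged1/PyMT, and dendritic and B cells overlapped in PyMT. Plasmacytoid dendritic cells differed between the libraries, with 35 UMIs or 159 CPM (110.4 to 220.5) in 29 Jagged1/PyMT cells and 7 UMIs or 37.2 CPM (14.9 to 76.6) in 23 PyMT cells, a 4.26-fold ratio (1.87 to 11.4).

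Over all kept cells, Abca1 was higher in Jagged1/PyMT, at 73.8 CPM against 27.8 CPM in PyMT, a 2.66-fold difference (2.47 to 2.85). Within macrophages and B cells, where most of its UMIs lay, it was not higher beyond counting error. The Jagged1/PyMT levels given above were below the PyMT levels, with overlapping intervals in both gates. The B cell log2 ratio had an interval below 0 (-0.50 to -0.06). In macrophages the log2 ratio was above 0 when cells were thinned to 1000 UMIs (0.32) or when per-cell CPM was averaged (0.21). Macrophages were 30.8% of kept Jagged1/PyMT cells and 3.59% of PyMT cells, and they held 75.1% and 27.8% of all Abca1 UMIs; B cells held 7.27% and 43.3%. Barcodes in no gate, with 16.7% and 17.4% of Abca1 UMIs, held 55.8 CPM in Jagged1/PyMT and 31.9 CPM in PyMT. There Abca1 was 1.75-fold higher in Jagged1/PyMT (1.47 to 2.09). The PyMT level of each gate, and of the barcodes in no gate, was then applied to the Jagged1/PyMT totals. The all-cell level came to 76.9 CPM, and the observed Jagged1/PyMT level was 0.96 times that. The same calculation gave 0.92 times for Abcg1, 0.87 times for Srebf2 and 0.66 times for Insig1. The fold over all kept cells was 1.21 for Abcg1, 0.73 for Srebf2 and 0.66 for Insig1. The calculation did not hold equal the cell make-up within gates or among barcodes in no gate. The part of that make-up in the Insig1 difference was not tested.

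Insig1, the sterol-dependent brake on SREBP-2, was lower in Jagged1/PyMT in 3 of the 4 gates. T cells held 220 UMIs or 20.98 CPM (18.3 to 23.9) in Jagged1/PyMT and 677 UMIs or 32.3 CPM (29.9 to 34.9) in PyMT, 1.54-fold lower. B cells held 49 UMIs or 11.7 CPM (8.63 to 15.4) and 103 UMIs or 20.5 CPM (16.7 to 24.9), 1.76-fold lower. These levels did not overlap between the libraries. Macrophages held 544 UMIs or 21.3 CPM (19.6 to 23.2) and 63 UMIs or 30.8 CPM (23.6 to 39.3), 1.44-fold lower. The log2 ratios of Jagged1/PyMT over PyMT were -0.62 (-0.85 to -0.40) in T cells, -0.81 (-1.33 to -0.31) in B cells and -0.53 (-0.91 to -0.13) in macrophages. Dendritic cells had 19 UMIs (20.5 CPM) and 21 UMIs (20.7 CPM), a log2 ratio of -0.02 (-0.99 to 0.95), an interval that also holds the ratios of the other gates.

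The lower Insig1 level recurred across T and B cell subsets. Cd4 T cells held 22 CPM (16.6 to 28.6) in Jagged1/PyMT and 34.4 CPM (29.8 to 39.6) in PyMT, and Cd8 T cells 19.5 CPM (15.2 to 24.7) and 27.3 CPM (23.4 to 31.6). B cells with a Myc UMI held 10.8 CPM (7.14 to 15.8) and 22.5 CPM (16.2 to 30.3), and the remaining B cells 12.2 CPM (7.42 to 18.8) and 19.4 CPM (14.8 to 24.9). The intervals of the libraries overlapped in Cd8 T cells and in the remaining B cells. Cycling T cells had 13 UMIs (24.8 CPM) in Jagged1/PyMT and 14 UMIs (22.2 CPM) in PyMT. Resident-type macrophages were near level, with a log2 ratio of -0.09 (-1.23 to 1.29) on 53 and 7 UMIs. Cycling macrophages stood at -0.78 (-1.87 to 0.57), and the remaining macrophages at -0.49 (-0.94 to -0.007). At 1000 UMIs per cell, 2.06% of Jagged1/PyMT T cells (1.53% to 2.70%) and 3.17% of PyMT T cells (2.70% to 3.71%) held an Insig1 UMI; at full depth the shares were 7.74% and 11.8%.

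The difference was not limited to gated cells. Barcodes in no gate had a log2 ratio of -0.77 (-1.10 to -0.44), and free RNA, with 33 and 30 UMIs, one of -0.72 (-1.48 to 0.04). Genes of the tissue dissociation response had summed levels in the opposite direction in the same gates. Of 10 listed, 7 were over 1.5-fold higher in Jagged1/PyMT in B cells, 4 in T cells and 2 in macrophages, and none were over 1.5-fold lower. Of all genes with at least 50 UMIs in the gate, 4.59% were higher in B cells, 6.65% in T cells and 10.6% in macrophages. The summed level of the 10 was 7069 CPM against 4852 CPM in B cells and 3847 CPM against 3269 CPM in T cells. In macrophages it was 10510 CPM against 8137 CPM. In dendritic cells, where the Insig1 log2 ratio was -0.02 (-0.99 to 0.95), the sum was also higher, at 7578 CPM against 6804 CPM. There 4 of the 10 were higher, beside 9.20% of all such genes. Log2 ratios of the 10 ran from -0.43 to 1.34, with Jun at 1.19. The part of this response in the Insig1 difference was not tested.

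**Figure D3:**
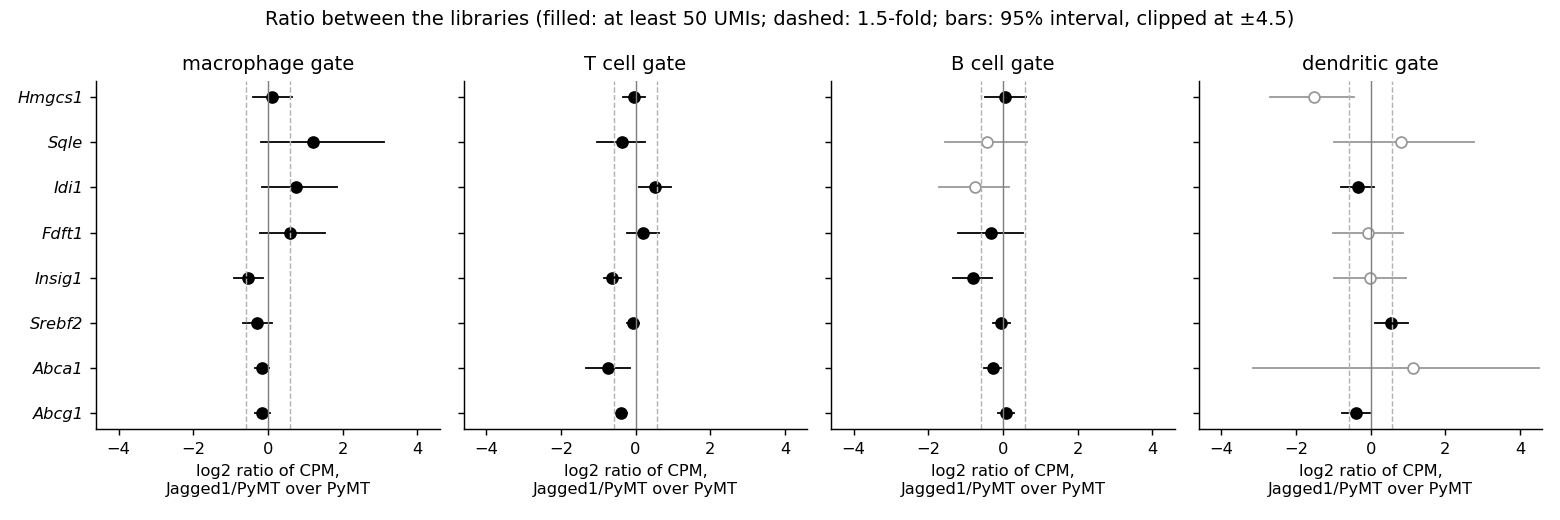
Log2 ratio of CPM, Jagged1/PyMT over PyMT (horizontal axis), for each gene in each gate, with bars for the 95% interval; filled points have at least 50 UMIs over both libraries, and dashed lines mark 1.5-fold. Insig1 lies left of 0 with its interval in macrophages, T cells and B cells, and the wide bars of Sqle and Idi1 in macrophages cross 0.

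At most 2 of the 8 genes were called between the libraries in any gate in the main values. A gene was called when its CPM differed by more than 1.5-fold, among genes with at least 50 UMIs over both libraries of a gate. In macrophages 2 of 8 members were called higher in Jagged1/PyMT and 0 lower, where 10.6% of 10400 genes were higher and 10.2% lower. In T cells 0 of 8 were higher and 2 lower (Insig1 and Abca1), where 6.65% of 9789 genes were higher and 6.02% lower. In B cells 0 of 6 were higher and 1 lower (Insig1), where 4.59% of 7950 genes were higher and 6.00% lower. In dendritic cells 0 of 3 were called either way, where 9.20% of 4074 genes were higher and 7.19% lower. The median log2 ratio of the members that reached 50 UMIs was -0.02 in macrophages, -0.21 in T cells, -0.16 in B cells and -0.35 in dendritic cells, against 0.02, 0.00, -0.03 and 0.04 over all such genes of each gate.

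The called members of macrophages were Sqle and Idi1, and both rested on few PyMT UMIs. Sqle had 115 UMIs (4.504 CPM) in Jagged1/PyMT and 4 UMIs (1.95 CPM) in PyMT, a log2 ratio of 1.21 (-0.19 to 3.11). Idi1 had 210 UMIs and 10 UMIs, a log2 ratio of 0.75 (-0.15 to 1.83), which was 0.55, under the threshold, in cells with at least 5000 UMIs. Fdft1, with 243 and 13 UMIs, lay just under the threshold at 0.58 (-0.22 to 1.51), and Hmgcs1 at 0.10 (-0.39 to 0.64), or -0.65 in cells with no UMI of another lineage. All 4 enzymes thus had point ratios above 0 in the whole macrophage gate, with a median of 0.67, but no interval excluded an equal level. Sqle, Idi1 and Fdft1 reached the minimum of 50 UMIs through Jagged1/PyMT. In cycling macrophages, 12 of them in PyMT, point ratios were -1.17 for Sqle, -0.75 for Idi1, -0.40 for Fdft1 and 0.14 for Hmgcs1. The intervals of all 4 were wide there and included 0. The exporters were close to level in the whole gate. Abca1 stood at -0.17 (-0.35 to 0.02), or 0.32 when cells were thinned to 1000 UMIs, and Abcg1 at -0.15 (-0.36 to 0.07). Srebf2 stood at -0.30 (-0.68 to 0.10), or 0.48 when thinned, on 56 and 4 UMIs.

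In T cells both exporters were at lower levels in Jagged1/PyMT. Abca1 had 33 UMIs in Jagged1/PyMT and 109 in PyMT, a log2 ratio of -0.73 (-1.33 to -0.15), and Abcg1, with 390 and 1020 UMIs, stood at -0.39 (-0.56 to -0.22). Cd4 T cells had 1 Abca1 UMI (0.393 CPM) in Jagged1/PyMT and 25 (4.35 CPM) in PyMT, a log2 ratio of -3.47 (-8.83 to -0.86), and Cd8 T cells had 14 (3.95 CPM) and 49 (7.47 CPM). The remaining T cells, with 17 (4.56 CPM) and 31 (4.10 CPM), had a ratio of the other sign, 0.15 (-0.79 to 1.05). The T cell gate carried more macrophage marker RNA in Jagged1/PyMT, with all 7 markers detected in both libraries and summing to 79.8 CPM against 17.8 CPM in PyMT. With free RNA subtracted, scaled by Lyz2, the Abca1 log2 ratio was -1.48, and in cells with no UMI of another lineage it was -0.57, under the threshold. Among the enzymes, Idi1 stood at 0.53 (0.10 to 0.95), Fdft1 at 0.20 (-0.24 to 0.63), Hmgcs1 at -0.04 (-0.34 to 0.26) and Sqle at -0.36 (-1.02 to 0.26), and Srebf2 at -0.06 (-0.23 to 0.10).

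In B cells, apart from Insig1, Abca1 stood at -0.28 (-0.50 to -0.06), Abcg1 at 0.08 (-0.14 to 0.30), Srebf2 at -0.05 (-0.28 to 0.18), Hmgcs1 at 0.06 (-0.49 to 0.61) and Fdft1 at -0.33 (-1.22 to 0.54). Idi1 (16 and 32 UMIs) and Sqle (13 and 21 UMIs) missed the count of 50, at -0.74 (-1.71 to 0.17) and -0.43 (-1.55 to 0.63). In dendritic cells Srebf2 stood at 0.56 (0.11 to 1.01), Idi1 at -0.35 (-0.80 to 0.10) and Abcg1 at -0.39 (-0.77 to -0.01). By subset, Srebf2 stood at 2.09 (0.90 to 3.51) in plasmacytoid and 0.24 (-0.36 to 0.83) in mature dendritic cells. In conventional dendritic cells it stood at -0.12 (-1.19 to 0.98). The other 5 members had too few UMIs in the dendritic gate to be counted. Hmgcs1 among them had 10 UMIs in Jagged1/PyMT and 31 in PyMT, a log2 ratio of -1.50 (-2.70 to -0.44) that ranged from -1.63 to 0.46 over the processing settings, Fdft1 20 and 23 UMIs, Insig1 19 and 21, Sqle 8 and 5, and Abca1 2 and 1.

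The other genes of the pathway were read in the same way. Of 17 other synthesis enzymes with enough UMIs in macrophages, 2 were over 1.5-fold higher in Jagged1/PyMT and 1 lower, beside 10.6% and 10.2% of all genes. Their median log2 ratio was 0.02, as was that of all genes. Fdps, the farnesyl diphosphate synthase upstream of Fdft1, had 32.0 CPM in Jagged1/PyMT and 16.6 CPM in PyMT macrophages, a log2 ratio of 0.95 (0.45 to 1.49). Hsd17b7, the second of those called higher, reached the minimum through Jagged1/PyMT, with 51 and 2 UMIs, and its interval includes 0, at 1.03 (-0.89 to 4.12). The sterol enzymes Cyp51 at -0.50 (-0.997 to 0.04) and Msmo1 at -0.41 (-0.97 to 0.21) had intervals that include 0.

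Cd36, a scavenger receptor for oxidised lipoproteins, was lower in Jagged1/PyMT macrophages. It had 343 UMIs or 13.4 CPM in Jagged1/PyMT and 68 UMIs or 33.2 CPM in PyMT, a log2 ratio of -1.31 (-1.68 to -0.91). Of the 7 sterol sensing and uptake genes with enough UMIs, 1 was higher and 1 lower, beside 10.6% and 10.2% of all genes. The median of the 7 was -0.27. Of the 10 storage and lysosomal genes, Ch25h, which makes the oxysterol 25-hydroxycholesterol, was higher at 0.81 (0.11 to 1.60) and Cd36 lower, with a median of 0.06. Soat1, which esterifies cholesterol for storage, stood at 0.17 (-0.03 to 0.36).

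Most LXR receptors and targets were close to level in macrophages. Of 7 with enough UMIs, 0 were over 1.5-fold higher and 1 lower, beside 10.6% and 10.2% of all genes. The lower one, Pltp, a phospholipid transfer protein, had 199.6 CPM in Jagged1/PyMT and 325 CPM in PyMT, at -0.70 (-0.82 to -0.58). Apoe, an apolipoprotein that macrophages secrete, had 14411 CPM and 16159 CPM, at -0.17 (-0.18 to -0.15). Nr1h3, which encodes LXR-alpha, stood at -0.22 (-0.80 to 0.42), and Srebf1, whose product drives fatty acid synthesis, at -0.29 (-0.76 to 0.22). The 6 fatty acid synthesis genes had a median of 0.22.

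In T cells 3 of 18 other enzymes were over 1.5-fold higher in Jagged1/PyMT and 2 lower, beside 6.65% and 6.02% of all genes. The median of the 18 was 0.04. Mvd, which forms isopentenyl diphosphate, stood at 1.14 (0.60 to 1.68), Dhcr7, the last reductase of the pathway, at 0.66 (0.29 to 1.03) and Fdps at 0.60 (0.34 to 0.86). Mvk, the mevalonate kinase, stood at -0.90 (-1.29 to -0.52) and Acat2 at -0.73 (-1.04 to -0.43). Of 7 sterol sensing and uptake genes, 1 was over 1.5-fold higher and 0 lower, with a median of 0.08. Apoe (1.997), Pltp (1.12), Nceh1 (0.68) and Scarb1 (0.66) were also over 1.5-fold higher in T cells. Apoe in T cells had 125 CPM in Jagged1/PyMT and 31.4 CPM in PyMT, where free RNA held 5812 CPM and 1405 CPM of it, and the part of free RNA in these 4 ratios was not tested.

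In B cells 0 of 9 other enzymes were higher and 2 were lower, beside 4.59% and 6.00% of all genes, with a median of -0.32. The lower ones were Pmvk, the phosphomevalonate kinase, at -1.03 (-1.50 to -0.57) and Acat2 at -1.004 (-1.67 to -0.37). Fdps stood at 0.20 (-0.40 to 0.80). Mbtps2, a protease that releases SREBP-2, was the 1 of 6 sensing genes called, at 0.71 (0.03 to 1.40). No LXR, storage or fatty acid gene was called in B cells. In dendritic cells, where 9.20% of all genes were higher and 7.19% lower, 1 of 5 enzymes was called higher. It was Ebp, at 0.62 (-0.02 to 1.27), and Fdps stood at 0.08 (-0.49 to 0.64). Of 2 sensing genes there, Mbtps1, another protease that releases SREBP-2, was called lower at -0.70 (-1.62 to 0.17). Of 4 storage genes, Npc1, which exports cholesterol from lysosomes, was called higher at 0.76 (0.10 to 1.43), as was Nceh1, a cholesteryl ester hydrolase, at 0.71 (-0.01 to 1.46). The 1 fatty acid gene with enough UMIs, Acly, the ATP citrate lyase, was higher at 0.59 (-0.10 to 1.29), and 0 of 4 LXR genes were called.

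**Figure D4:**
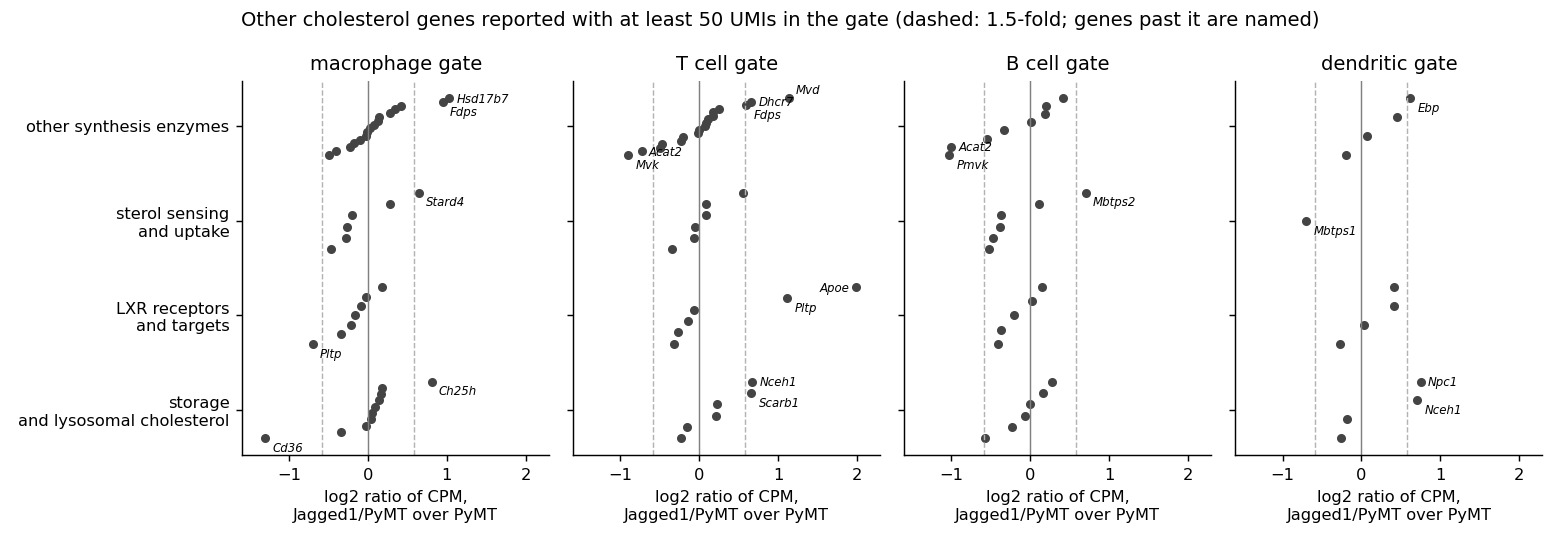
Log2 ratio of CPM, Jagged1/PyMT over PyMT (horizontal axis), of other cholesterol genes reported here with at least 50 UMIs in each gate, 1 point per gene, grouped by role down the page; dashed lines mark 1.5-fold and genes past them are named. Most points lie between the dashed lines in each gate, with Cd36 at -1.31 in macrophages and Apoe at 1.997 in T cells.

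Export and synthesis were also set against each other from cell to cell in macrophages. Cells with at least 5000 UMIs were thinned to that number, and those that kept an Abca1 UMI were compared with those that did not: 609 and 1091 cells in Jagged1/PyMT, and 43 and 105 in PyMT. In Jagged1/PyMT, cells with Abca1 held 127 CPM of Abcg1 (115 to 140.4), against 63.1 CPM (56.6 to 70.1) in cells without. In PyMT the levels were 139.5 CPM (94.1 to 199) and 80.0 CPM (57.7 to 108), with overlapping intervals. Apoe was at 18353 CPM with Abca1 and 12665 CPM without it in Jagged1/PyMT, and at 19684 CPM and 13510 CPM in PyMT. Macrophages with Abca1 thus held more Apoe in both libraries, and more Abcg1 beyond counting error in Jagged1/PyMT.

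The synthesis enzymes were lower in macrophages with Abca1, beyond counting error in Jagged1/PyMT. All 22 together had 275 CPM (257 to 294) in Jagged1/PyMT cells with Abca1 and 332 CPM (317 to 347) in cells without, and 219 CPM (161 to 291) and 326 CPM (279 to 378) in PyMT, where the intervals overlapped. Fdft1 had 5.58 CPM (3.25 to 8.94) and 12.3 CPM (9.52 to 15.6) in Jagged1/PyMT. In PyMT it had 1 UMI (4.65 CPM) with Abca1 and 2 UMIs (3.81 CPM) without, the other direction on very few UMIs. Hmgcs1, at 19.7 CPM (15.0 to 25.4) and 21.8 CPM (18.1 to 26.1) in Jagged1/PyMT, had overlapping intervals. Its PyMT levels also ran the other way, at 18.6 CPM (4 UMIs) with Abca1 and 13.3 CPM (7 UMIs) without, with overlapping intervals. Split by Insig1 in the same way, the 22 enzymes had 415 CPM (372 to 461) in the 165 Jagged1/PyMT macrophages with an Insig1 UMI and 300.3 CPM (288 to 313) in the 1535 without. PyMT had 19 such cells, at 379 CPM (265 to 525), against 282 CPM (243 to 326) in the 129 without. Split by Abcg1 in place of Abca1, the enzymes had 263 CPM (244 to 283) with it and 333 CPM (318 to 348) without in Jagged1/PyMT, but 302 CPM (235 to 383) and 291 CPM (247 to 342) in PyMT. Cycling and resident-type macrophages differ in Abca1 as given above, and their part in these splits was not tested.

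**Figure D5:**
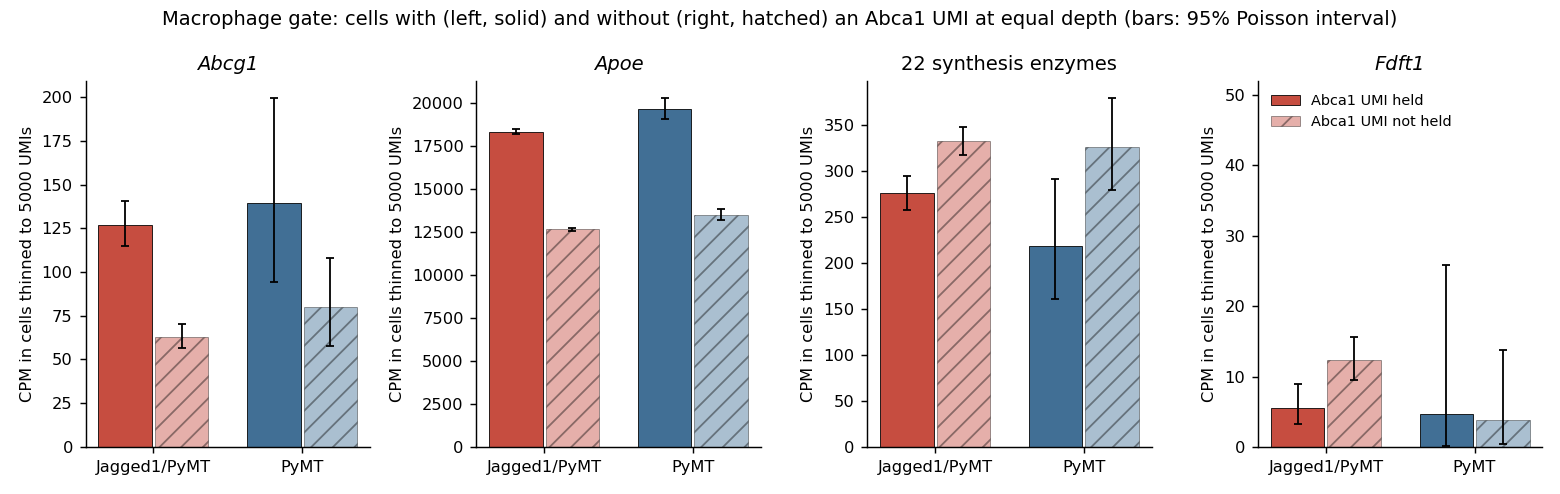
Macrophages thinned to 5000 UMIs, with (solid, left of each pair) and without (hatched, right) an Abca1 UMI, in Jagged1/PyMT and PyMT; vertical axes give CPM of Abcg1, Apoe, the 22 synthesis enzymes together and Fdft1, from 0, with bars for the 95% Poisson interval. The bars for Abcg1 and Apoe are higher in cells with Abca1 in both libraries, while the enzymes are at 275 against 332 CPM in Jagged1/PyMT and 219 against 326 CPM in PyMT.

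Genes with the most similar profile were ranked over the same 27 subsets, among 8683 genes, by Pearson r of log2(CPM + 10), without a test. The joint profile of Hmgcs1, Idi1 and Fdft1 was closest to Dynll2 (0.88), Psme2 (0.86), Ddt (0.85), Rtraf (0.84) and Sugt1 (0.84); Sqle had too few UMIs to enter. The joint profile of the exporters was closest to Rhob (0.89), Bri3 (0.84), Blvrb (0.83), Gla (0.83) and Ms4a4a (0.82). The exporters themselves had an r of 0.43 with each other.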

How the data were processed

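The authors deposited whole-number UMI counts for each gene in each barcode, and the submitters' processing notes name Cell Ranger 3.0.2. No normalisation or cell filter had been applied: each matrix lists 737280 barcodes. Genome build and annotation: not given in the sources used here. Of 31053 feature identifiers, 30934 were found in GENCODE vM21 (GRCm38), used for positions.

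A cell entered a gate with at least 3 UMIs of its markers and, for every other cell type list, at most 1 UMI or 20% of its own marker UMIs, whichever was larger. Subset names follow the same marker lists. Cycling macrophages, T cells and B cells were set apart first, at 3 UMIs. Of the other macrophages, Arg1 cells were taken next and then resident-type cells, each at 2 UMIs. Among T cells, those with 1 Foxp3 UMI were called regulatory, and then those with Cd4 or Cd8 but not both were named. B cells were split at 1 Myc UMI. Dendritic cells took the subset whose markers had the most UMIs, with no cycling subset. Doublets were not removed in the main values. UMIs were summed per library and gate and given as CPM with exact Poisson intervals. Ratios have exact conditional binomial (Clopper-Pearson) intervals, and shares exact binomial ones. All of these cover counting error and not differences between mice. Cells were thinned at random to 1000 or 5000 UMIs for shares and splits, and shallower cells were left out. Python 3.11.15, numpy 2.4.6, scipy 1.17.1, pandas 2.3.3 and scanpy 1.11.5 were used. The ratio step was tested on simulated counts.

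The genes, pathway lists and gates were chosen with earlier results of these data known. The genes named are the 8 members, up to 4 per pathway list and gate with the largest log2 ratio, and always Fdps, Cyp51, Msmo1, Nr1h3, Apoe, Srebf1, Soat1 and Jag1. Some genes of the lists are counted in them but not reported here by name. The 5 genes most like each profile were named by Pearson r. The subsets and gene pairs described were chosen after their values were seen.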

Additional observations from a re-analysis of the deposited data

How the results depend on the processing

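No paired analysis was possible because the samples of each genotype cannot be separated within their matrix, and for the same reason no replicate could be left out. Of 119 recomputed counts and medians, 106 stayed within 1.5 times or within counting error of the main value, as did 445 of 470 ratios of single genes. The count of called members changed as follows. In macrophages (2) it was 4 in cells with no UMI of another lineage and 1 in cells with at least 5000 UMIs, a setting chosen after seeing the data. In T cells (2) it was 1 in cells with no UMI of another lineage. In B cells (1) it was 2 when thinned to 1000 UMIs or with 20 UMIs as the minimum, and 3 in cells with at least 5000 UMIs. In dendritic cells (0) it was 2 with no UMI of another lineage, with the mean of per-cell CPM and when thinned, and 1 with totals that omit ribosomal and mitochondrial genes or with the minimum of 20. The median log2 ratio of the 4 enzymes was -0.34 in T cells when thinned (main 0.08) and 0.73 in B cells with at least 5000 UMIs (main -0.38); the cause was not tested. Insig1 stayed below 0 in all 15 settings in T cells (-0.88 to -0.55), B cells (-1.18 to -0.71) and macrophages (-0.89 to -0.35). The macrophage ratios of Sqle ranged from 0.89 to 2.88 and of Idi1 from 0.55 to 2.73, and Abca1 there from -0.37 to 0.32. Scrublet called 0 Jagged1/PyMT and 3 PyMT doublets, too few to be used, so the top 496 and 443 scores were removed as an alternative. In 10 cases a library fell under 1 UMI and gave no value. The PyMT macrophage gate (267 cells) and the dendritic gates (111 Jagged1/PyMT and 101 PyMT cells) hold the fewest cells.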
